A study of Saccharomyces cerevisiae with 40 samples.

Results

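The autophagy genes of Saccharomyces cerevisiae were followed across every dose, time and deletion strain of an arsenite (AsIII) expression study. Members were the genes whose current symbol is ATG and a number and that were measured on both array platforms, with several probes of a gene averaged. The rule found 36 genes, among 5540 genes on the in-house cDNA arrays, 5598 on the Agilent arrays and 5513 on both. RefSeq lists 37 such symbols, and ATG44 was not analysed here. The Atg6 and Atg24 proteins are encoded by genes now named VPS30 and SNX4, which were therefore counted with the wider machinery and not among the 36 members.

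All cultures were of strain BY4741 (MATa with his3, leu2, met15 and ura3 markers), cultured at 30 °C in synthetic complete medium, and each was divided, with NaAsO2 added to one part. On the cDNA arrays, which received poly(A) RNA, cells treated with 1 mM AsIII for 30 min (2 culture pairs) or with 100 µM for 30 min, 2 h or 4 h (1 culture pair each) were compared with their untreated part, with 4 arrays for each culture pair. On the Agilent 60-mer oligonucleotide arrays, which received total RNA, 100 µM AsIII for 2 h was compared with no treatment in the parent (4 arrays) and in strains labelled Yap1-Null, Cad1-Null, Rpn4-Null and Arr1-Null (2 arrays each), written yap1Δ, cad1Δ, rpn4Δ and arr1Δ. Each untreated deletion strain was also compared with the untreated parent (2 arrays each). The deletion strains share the background of the parent, and each is 1 strain of a deletion collection. Yap1 and Cad1 are basic leucine zipper stress factors, Arr1 (also called Yap8) is the factor of that family that controls arsenic resistance genes, and Rpn4 activates the proteasome genes.

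Autophagy carries cytoplasm and organelles to the vacuole, the lytic compartment of yeast. The Atg1 kinase complex starts the process, a phosphatidylinositol 3-kinase complex and Atg9 vesicles build the isolation membrane, and conjugation systems that resemble ubiquitination attach Atg8 to lipid on that membrane. Selective receptors tether mitochondria, peroxisomes, endoplasmic reticulum or vacuolar enzymes to Atg8 or Atg11, and a lipase and permeases deal with the contents once they reach the vacuole. Several ATG genes are known to be transcribed more strongly when nitrogen is limiting.

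Values are log2 ratios, positive where the treated culture or the deletion strain was higher. Ratios were taken between whole cultures, so fewer expressing cells and less RNA per cell cannot be told apart, and the number of arrays limits the precision. Within each comparison the dyes were exchanged: the arrays numbered 1 and 2 of each cDNA culture pair held the treated RNA in Cy3 and those numbered 3 and 4 in Cy5, and odd-numbered Agilent arrays held the treated or deletion RNA in Cy5 and even-numbered ones in Cy3. Values by array are listed in array order. A gene was called where limma's moderated test gave an adjusted p under 0.05 (Benjamini-Hochberg over all genes of the platform). The spread in these tests came from the 2 culture pairs at 1 mM on the cDNA arrays and from the 2 parent dye-swap pairs on the Agilent arrays, and the other conditions, with 1 pair each, were assumed to vary like them. On the Agilent arrays limma shrank every gene fully to a common spread (infinite prior degrees of freedom), so all genes of a comparison have the same SE (0.12 in the parent, 0.17 in a deletion strain, 0.21 for a difference between them), no gene's own spread enters, and the very small p-values follow from the size of the ratio alone. Whether the parent pairs were separate cultures is not stated, so that spread may be technical.

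The deleted genes were low on the untreated deletion arrays. YAP1 stood at -4.05 and -4.66 in yap1Δ, CAD1 at -3.94 and -5.57 in cad1Δ, RPN4 at -3.62 and -4.46 in rpn4Δ, and ARR1 at -0.95 and -3.60 in arr1Δ. Each was thus below 0 in both dye orientations, with ARR1 closest to 0. In the AsIII comparison within its own deletion strain, CAD1 read 0.86 and 0.75 although the gene is deleted there, while YAP1, RPN4 and ARR1 lay between 0.03 and 0.16. Array medians over all genes lay between -0.06 and 0.07 on the cDNA arrays and between -0.11 and 0.002 on the Agilent arrays. Across all genes the opposite dye orientations of a pair correlated at 0.82 to 0.93 on the Agilent AsIII comparisons, but at 0.40 in untreated arr1Δ, 0.57 in untreated rpn4Δ, -0.14 in untreated cad1Δ and -0.48 in untreated yap1Δ. On the cDNA arrays the same correlations were 0.75 and 0.84 at 1 mM, 0.52 at 2 h, 0.30 at 4 h and 0.12 at 30 min of 100 µM.

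**Figure D1:**
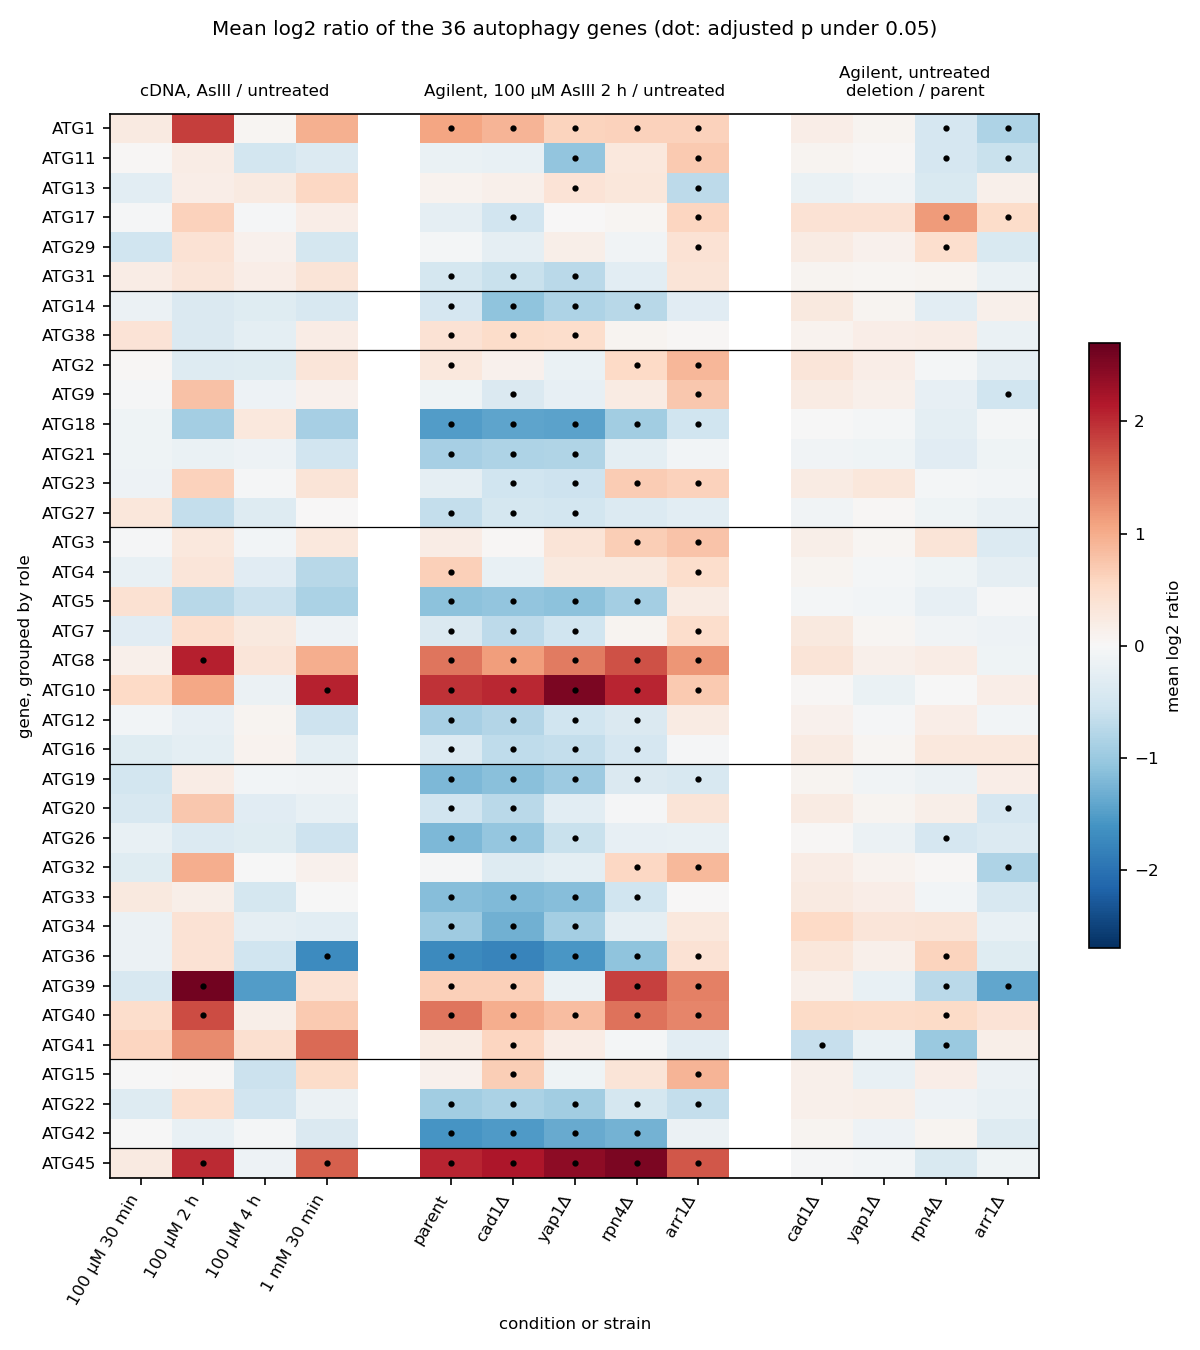
Mean log2 ratio of each of the 36 autophagy genes (rows, grouped by role, in the order Atg1 kinase complex, phosphatidylinositol 3-kinase complex, Atg9 vesicles and phosphoinositide binding, ubiquitin-like conjugation, receptors and selective autophagy, breakdown in the vacuole, and ATG45) in each condition (columns), with a dot where the adjusted p was under 0.05. ATG8, ATG10, ATG40 and ATG45 are red in all 5 strains treated with AsIII on the Agilent arrays, and ATG36 and ATG42 are blue, at -1.09 or below, in every strain but arr1Δ.

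In cells given 100 µM AsIII for 2 h, 4 of the 36 members rose on the cDNA arrays and none fell, against 3.75% of all genes called higher and 2.18% called lower. The 4 were ATG39, ATG8, ATG45 and ATG40. The unadjusted p of the moderated test was under 0.05 for 9 members. The share of all genes at that unadjusted threshold was not computed, here or in later comparisons. Such counts therefore cannot be set against a background. The median over the members was 0.32, beside -0.06 over all genes of the platform.

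ATG39 encodes a receptor for the degradation of the nuclear envelope and the perinuclear endoplasmic reticulum. Its 4 arrays at 2 h read 2.11, 2.50, 2.79 and 3.06, a mean log2 ratio of 2.62 ± 0.36 (SE) and an adjusted p of 0.0318. ATG40, the receptor of the peripheral endoplasmic reticulum, read 1.71, 1.35, 2.06 and 1.96, with a mean of 1.77 ± 0.29 (adjusted p = 0.0384). Every array was above 1 for both receptors. ATG8, whose product is attached to the membrane and binds the receptors, read 1.74, 2.18, 2.22 and 2.24 (mean 2.10 ± 0.34, adjusted p = 0.0384). ATG45, which encodes a receptor described for the autophagy of glycogen, read 1.97, 1.54, 2.32 and 2.20 (mean 2.01 ± 0.32, adjusted p = 0.0384). These values correspond to 6.13-fold for ATG39, 4.28-fold for ATG8, 4.02-fold for ATG45 and 3.41-fold for ATG40. The 4 calls remained when each of the 4 arrays was left out in turn. That check left the spread, which comes from the culture pairs at 1 mM, unchanged. It therefore says nothing of how the values vary between cultures.

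3 further members averaged at least 1 at 2 h without passing the test. ATG1, the gene of the kinase that starts autophagy, read 1.28, 1.63, 2.20 and 2.40 (mean 1.88 ± 0.49, adjusted p = 0.0859). ATG41, which encodes an Atg9-associated protein, read 1.08, 1.06, 1.42 and 1.52 (adjusted p = 0.485). ATG10, which encodes the E2-like enzyme that attaches Atg12 to Atg5, read 1.13, 0.54, 1.32 and 1.19 (adjusted p = 0.116). All 12 of these values were above 0. The error of each gene includes the gap between its culture pairs at 1 mM, which was largest for ATG41 and next largest for ATG1. The lowest mean at 2 h was that of ATG18, a phosphoinositide-binding protein, at -0.86, -0.50, -1.20 and -1.08 (mean -0.91, adjusted p = 0.203).

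Among the 6 genes of the Atg1 complex and its scaffolds, the median at 2 h was 0.35 and none was called. The 8 genes of ubiquitin-like conjugation had a median of 0.30 with 1 called (ATG8), and the 10 receptors and selective autophagy genes 0.57 with 2 called (ATG39 and ATG40). That list of 10 holds ATG41 and leaves out the receptor gene ATG45, which is in no list and was called too. The mitophagy receptor gene ATG32 read 0.53, 0.45, 1.42 and 1.51 and the sorting nexin gene ATG20 read 0.48, 0.86, 0.55 and 1.05, so both were above 0 on all 4 arrays without being called. The 6 genes of Atg9 vesicles and phosphoinositide binding were mixed, with a median of -0.27 and ATG9 itself at 1.07, 0.38, 0.81 and 0.88. ATG2, the lipid transfer gene of that list, had 1 array far from the others, at 1.07, 0.58, 0.25 and -3.32. The 2 genes of the phosphatidylinositol 3-kinase complex had a median of -0.38, and the 3 vacuolar breakdown genes 0.03.

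At 30 min of 100 µM AsIII no member was called, as for all genes (0% higher, 0% lower), and no member had an unadjusted p under 0.05. Means ran from -0.53 for ATG29, a subunit of the Atg17 scaffold, to 0.58 for ATG41. The median over members was -0.06, beside -0.03 over all genes. ATG8 read -0.10, 0.12, 0.12 and 0.39 and ATG39 read -0.28, -0.07, -1.29 and -0.06. ATG8 had arrays on both sides of 0, and ATG39 was below 0 on all 4, with array 3 lowest.

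At 4 h no member was called either, with 0.0542% of all genes higher and 0% lower. The members' median was -0.14, beside -0.04, and 1 member had an unadjusted p under 0.05. ATG39 read -1.50, -1.94, -1.25 and -1.30 at 4 h (mean -1.50 ± 0.36, adjusted p = 0.244). All 4 arrays at 4 h were thus below -1.2, where all 4 at 2 h had been above 2. ATG8, ATG40 and ATG45 had means of 0.32, 0.17 and -0.13 at 4 h.

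The time course was compared directly by contrasts of the same fit, and none of the 36 members passed in any of them. Between 30 min and 2 h of 100 µM the background was 0% called higher and 0% lower. The members' median difference was 0.52, beside -0.01 over all genes, and 25 of the 36 were higher at 2 h. From 2 h to 4 h, with 0% and 0% of all genes called, the median difference was -0.61, beside -0.04, and 12 of 36 were higher. The ATG39 difference between 4 h and 2 h was -4.11 ± 0.52 (adjusted p = 0.0617). ATG45 differed by -2.14 (adjusted p = 0.0958) and ATG1 by -1.83 (adjusted p = 0.213). The unadjusted p was under 0.05 for 6 members between 30 min and 2 h and for 7 between 2 h and 4 h. Both contrasts use the same 2 h arrays. Taking the arrays singly as replicates gave 13 called members in the first contrast (26.7% of all genes), 15 in the second (37.3%) and 15 at 2 h itself (42.4%). The members' shares were near those of all genes there.

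At 1 mM AsIII for 30 min, 2 members rose and 1 fell, against 9.69% and 7.09% of all genes. ATG10 read 1.53, 1.96, 3.05 and 2.80 in the first culture pair and 1.47, 1.87, 1.82 and 2.05 in the second (mean 2.07 ± 0.23, adjusted p = 0.00761). ATG45 read 1.37, 1.39, 2.46 and 2.31 and then 1.14, 1.41, 1.35 and 1.56 (mean 1.62 ± 0.23, adjusted p = 0.0135). Both were above 1 on all 8 arrays. ATG36, the receptor gene for the degradation of peroxisomes, read -1.99, -1.82, -1.91 and -1.97 in the first pair and -1.38, -1.63, -1.43 and -1.48 in the second, a mean of -1.70 ± 0.22 (adjusted p = 0.0109). It was below -1.3 on every array of this dose, and the 4 arrays at 100 µM for 2 h, at 0.20, 0.24, 0.39 and 0.69, were all above 0. The 3 calls remained when each of the 8 arrays was left out in turn. A cutoff modelled on the methods but stricter was also tried, which asked most arrays to exceed their own 95% range. This stricter cutoff called none of the 36 here (2.85% of all genes) and 2 at 2 h (2.42%). It is not the paper's own criterion, so these counts do not show which members that criterion would call. The median over the 36 members at 1 mM was 0.002, beside 0.02, and 18 members were above 0.

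The 2 culture pairs at 1 mM did not give the same values for every member. The difference between pairs had a median size of 0.44 over the members and 0.31 over all genes, and 3 members differed by 1 or more. ATG41 read 0.10, 0.11, -0.50 and -0.12 in the first pair and 2.66, 3.65, 3.28 and 2.98 in the second. ATG1 read 0.25, 0.54, 0.05 and 0.35 and then 1.40, 1.83, 1.49 and 1.74. ATG5, which encodes the acceptor of Atg12, read -1.95, -2.10, -0.81 and -0.82 and then -0.57, -0.92, 0.15 and 0.10. For ATG41 and ATG1 every array of the second pair was above every array of the first, and for ATG5 the Cy5 arrays were the higher ones within each pair. The means over both pairs were 1.52 for ATG41 and 0.96 for ATG1, and neither was called. ATG8 averaged 0.67 in the first pair and 1.30 in the second, and ATG39 0.02 and 0.78. Across the 36 members the pair means correlated at 0.68, and across all genes at 0.76, as a description.

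Against 100 µM at the same 30 min, no member passed at 1 mM (background 0% higher and 0% lower), nor did any differ between 1 mM at 30 min and 100 µM at 2 h (background 0% and 0%). Median differences over the members were 0.17 and -0.31, beside 0.05 and 0.07 over all genes. The largest difference from the 2 h sample was that of ATG39, at -2.22 (adjusted p = 0.235), followed by ATG36, at -2.08 (adjusted p = 0.235). Unadjusted p-values were under 0.05 for 3 members in the first of these contrasts and 7 in the second.

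**Figure D2:**
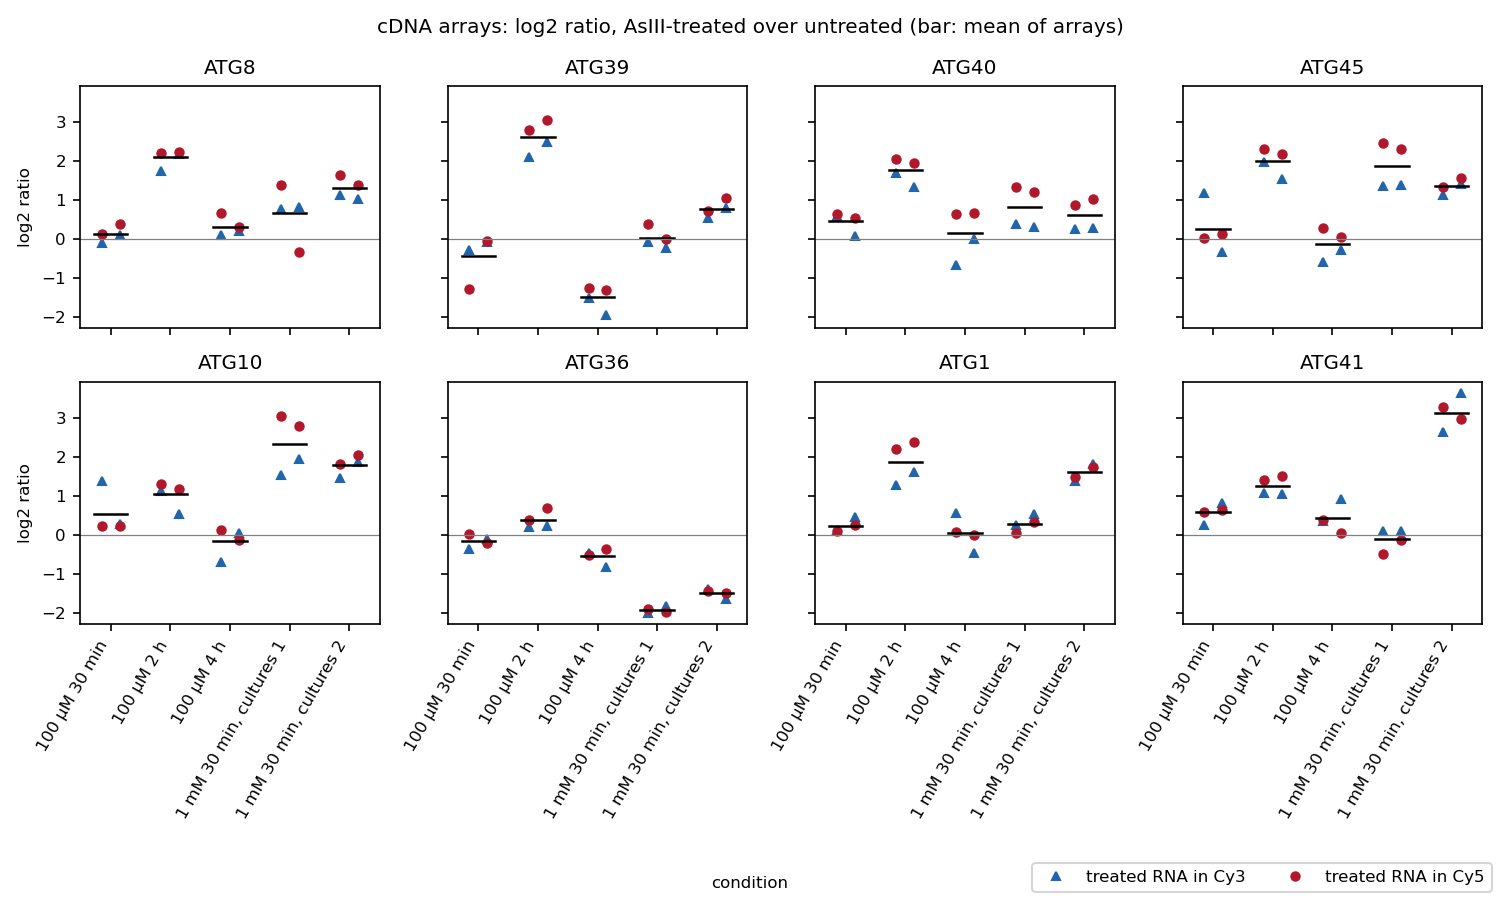
Log2 ratio of AsIII-treated over untreated cells on each cDNA array for 8 autophagy genes, by condition, with the 2 culture pairs at 1 mM shown apart, the dye of the treated RNA as symbol and the mean of the 4 arrays as bar. ATG39 lies above 2 at 2 h and below -1.2 at 4 h of 100 µM, ATG36 is below -1.3 only at 1 mM, and ATG41 and ATG1 differ between the culture pairs at 1 mM.

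On the Agilent arrays, parent cells given 100 µM AsIII for 2 h showed 9 members higher and 17 lower, beside 34.7% of all genes higher and 42.7% lower. The share lower, 17 of 36, was near the background, since most genes of the platform were called. The members' median was -0.24, beside -0.10 over all genes, and the mean passed 2-fold upwards for 5 members and downwards for 7. At 2-fold with limma's unadjusted p under 0.001, 12 of the 36 members and 25.3% of all genes passed in either direction. Of the 26 calls, 23 remained when each of the 4 arrays was left out in turn. ATG2 (0.28, 0.19 to 0.36 without an array) lost its call without any one of the 4 arrays. ATG7 (-0.26) and ATG16 (-0.19) lost theirs without array 1 or array 3.

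In the Atg1 complex, ATG1 rose, at 0.78, 1.26, 0.90 and 1.32 (mean 1.07 ± 0.12, adjusted p = 8.91e-18), and ATG31, a subunit of the Atg17 scaffold, fell, at -0.27, -0.68, -0.31 and -0.61 (adjusted p = 0.000198). ATG13, the regulatory subunit of the kinase, read -0.19, 0.46, -0.06 and 0.17. ATG11, the scaffold of selective autophagy, read -0.51, 0.02, -0.21 and -0.04, ATG17 read -0.04, -0.43, 0.13 and -0.62 and ATG29 read -0.31, 0.18, -0.31 and 0.22. None of these 4 was called, and all 4 had arrays on both sides of 0. ATG29 overlaps the end of SET6 in the annotation, and whether its probes also read that gene was not tested.

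In the phosphatidylinositol 3-kinase complex, ATG14, the subunit particular to autophagy, fell at -0.33, -0.24, -0.67 and -0.59, and ATG38, which holds the complex together, rose at 0.35, 0.44, 0.38 and 0.43. Of the Atg9 and phosphoinositide-binding genes, ATG18 fell at -1.44, -1.51, -1.64 and -1.42 (mean -1.50 ± 0.12, adjusted p = 9.24e-34). Its paralogue ATG21 fell at -0.75, -1.15, -0.58 and -1.12. ATG27, a membrane protein that accompanies Atg9, fell at -0.54, -0.84, -0.33 and -0.85, while ATG2 rose slightly, at 0.12, 0.22, 0.22 and 0.55. ATG9 at -0.24, -0.06, -0.17 and 0.04 and ATG23 at -0.27, -0.20, -0.17 and -0.31 were not called.

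The conjugation genes split. ATG10 rose at 1.76, 1.90, 1.95 and 2.15 (mean 1.94 ± 0.12, 3.84-fold) and ATG8 rose at 1.28, 1.48, 1.37 and 1.69 (mean 1.45 ± 0.12, 2.74-fold). ATG4, the protease that trims and releases Atg8, rose at 0.97, 0.82, 0.21 and 0.58, with array 3 lowest. The 3 genes of the Atg12-Atg5-Atg16 conjugate fell, ATG5 at -0.88, -1.58, -0.66 and -1.35, ATG12 at -0.87, -1.06, -0.81 and -0.85 and ATG16 at -0.41, 0.34, -0.98 and -0.45. ATG7, the E1-like enzyme, fell at -0.48, 0.02, -0.80 and -0.30, with array 2 just above 0. ATG3, the E2-like enzyme for Atg8, was not called at 0.25, -0.03, 0.13 and 0.41. ATG10 thus rose while ATG5 and ATG12 fell on every array. For ATG16 the fall was small (-0.37), with array 2 above 0.

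Of the 10 genes listed under receptors and selective autophagy, 2 rose and 6 fell, with a median of -0.73. The receptor gene ATG45, which rose, is not on that list. ATG40 rose at 1.53, 1.29, 1.86 and 1.12 and ATG39 at 0.73, 0.36, 0.75 and 0.72. ATG36 fell at -1.90, -1.66, -1.55 and -1.77 (mean -1.72 ± 0.12, 3.3-fold lower, adjusted p = 1.21e-43). ATG33, a mitochondrial outer membrane protein of mitophagy, fell at -1.14, -1.21, -0.94 and -1.33, and ATG26, a sterol glucosyltransferase, at -1.18, -1.28, -1.21 and -1.16. ATG19, the receptor of the cytoplasm-to-vacuole targeting (Cvt) pathway, fell at -1.03, -1.44, -0.98 and -1.39. Its paralogue ATG34 fell at -0.74, -1.41, -0.45 and -1.23, and ATG20 at -0.53, -0.69, -0.29 and -0.52. ATG19 and ATG34 are homologues that neighbour each other, and cross-hybridisation between their probes was not tested. ATG32 at -0.02, -0.35, 0.22 and 0.004 and ATG41 at 0.77, -0.52, 0.97 and -0.37 were not called.

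In the vacuole, ATG42, a serine carboxypeptidase, fell at -1.75, -1.61, -1.76 and -1.29 (mean -1.60 ± 0.12, 3.04-fold lower), and ATG22, an amino acid exporter, fell at -1.02, -0.92, -0.84 and -0.96. ATG15, the lipase that opens autophagic bodies, was not called at -0.36, 0.60, -0.70 and 0.96, with the sign following the dye. ATG45 had the highest mean of the 36, at 2.10, 2.06, 2.17 and 1.88 (mean 2.05 ± 0.12, 4.15-fold, adjusted p = 3.75e-61). The 23 members with 2 Agilent probes differed between probes by a median of 0.06 in this comparison and by at most 0.29 (ATG7).

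Dose, time and strain were the same for the cDNA arrays at 2 h and the Agilent parent arrays, but cultures, RNA preparation (poly(A) against total RNA) and probes were not, and the tables were normalised separately, so the values are given side by side without a test. The 36 means had the same sign for 20 members, and their correlation across members was 0.70, as a description. The members' median was 0.32 on the cDNA arrays and -0.24 on the Agilent arrays. ATG8, ATG40, ATG45, ATG10 and ATG1 were above 1 on both. ATG39 was 2.62 on the cDNA arrays and 0.64 on the Agilent arrays. ATG36 was 0.38 and -1.72, ATG19 was 0.19 and -1.21, ATG33 was 0.15 and -1.15, ATG34 was 0.40 and -0.96, and ATG22 was 0.46 and -0.93. Each of these 5 was above 0 on the cDNA arrays and fell on the Agilent arrays.

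**Figure D3:**
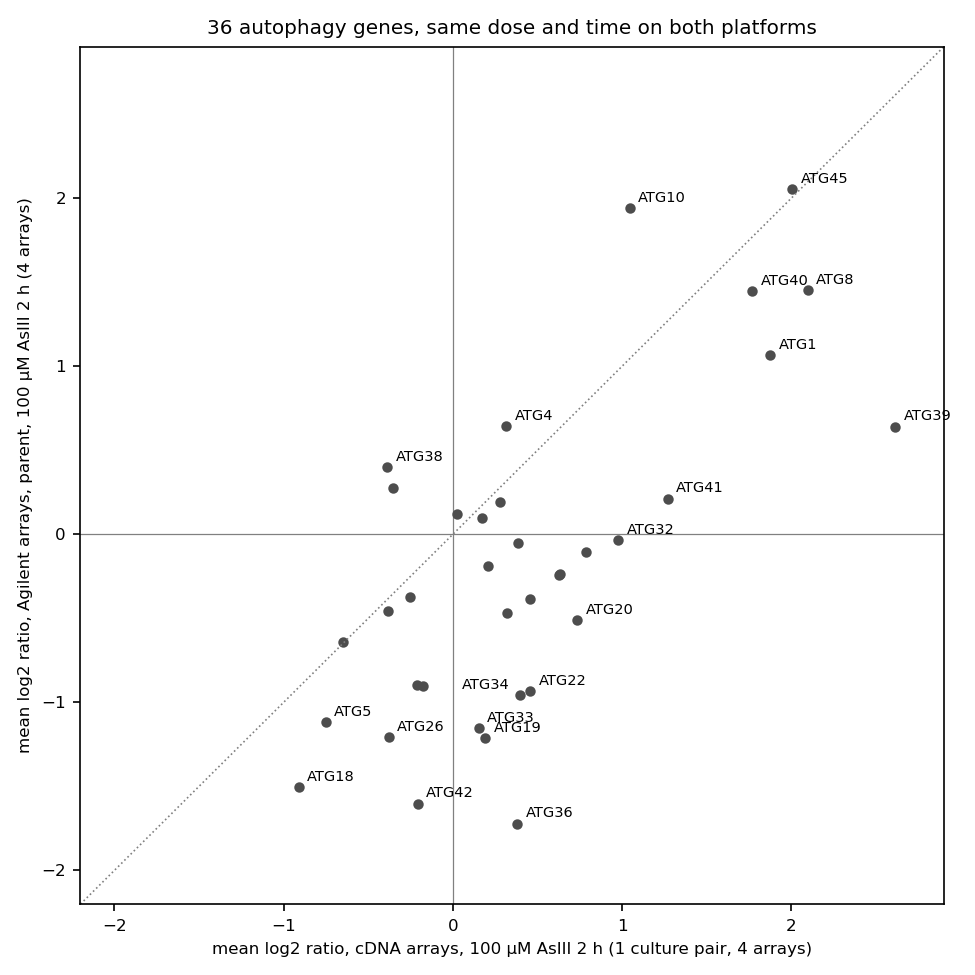
Mean log2 ratio of the 36 autophagy genes after 100 µM AsIII for 2 h on the cDNA arrays (x axis, 1 culture pair) and on the Agilent arrays in the parent (y axis, 4 arrays), with a dotted line where both are equal and selected genes named. ATG45 lies close to the line, ATG39 far to its right at 2.62 against 0.64, and ATG36 sits at 0.38 against -1.72.

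The question put to the deletion strains was whether the response to AsIII depended on each factor. In arr1Δ, 18 members rose and 4 fell with AsIII, beside 23.2% and 26.9% of all genes, and the members' median was 0.37 against -0.04 over all genes. The contrast with the parent response, whose 4 arrays are shared by all 4 such contrasts, called the response of 22 members higher in arr1Δ and of 3 lower, beside 28.6% and 25.5% of all genes. The median difference was 0.79 over the members and 0.04 over all genes. These are differences between ratios, not levels. Without AsIII, 6 members were called below the parent in arr1Δ and 1 above. Among the 6 were ATG39 (-1.41), ATG32 (-0.84), ATG11 (-0.60), ATG9 (-0.55) and ATG20 (-0.46), whose responses were called higher. Of the 17 members that fell in the parent, 3 fell and 2 rose in arr1Δ. The 17 were picked by their parent calls, and the same share for all genes that fell in the parent was not computed. Over all genes, 42.7% were called lower in the parent (4 arrays) and 26.9% in arr1Δ (2 arrays).

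ATG36 differed most, by 2.11 ± 0.21 (adjusted p = 7.69e-22): its arr1Δ arrays read 0.41 and 0.37, against -1.90, -1.66, -1.55 and -1.77 in the parent. The arrays of the strains did not overlap. ATG42 read -0.49 and 0.15 in arr1Δ, with a difference of 1.43 (adjusted p = 1.22e-10). ATG5 read 0.34 and 0.10 (difference 1.34), ATG12 read 0.14 and 0.32 (difference 1.13) and ATG16 read -0.38 and 0.32 (difference 0.34, adjusted p = 0.156). The genes of the Atg12-Atg5-Atg16 conjugate were thus near 0 in arr1Δ, though for ATG16 the difference did not pass. Among the selective autophagy genes, ATG34 read 0.41 and 0.17 (difference 1.25), ATG33 0.06 and -0.05 (1.16), ATG26 -0.27 and -0.13 (1.00), ATG20 0.46 and 0.24 (0.86) and ATG19 -0.55 and -0.34 (0.77). ATG32 rose in arr1Δ, at 1.00 and 0.73 (difference 0.90), as did ATG39, at 1.36 and 1.37 (difference 0.72).

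Of the phosphoinositide-binding genes, ATG18 still fell in arr1Δ, at -0.59 and -0.47, but less than in the parent (difference 0.97), and ATG21 read 0.11 and -0.24 (difference 0.83). ATG9, ATG23 and ATG2 rose in arr1Δ, ATG9 at 0.70 and 0.75, ATG23 at 0.54 and 0.72 and ATG2 at 0.78 and 1.01, with differences of 0.83, 0.86 and 0.62. In the Atg1 complex, ATG11 rose at 0.49 and 0.92 and ATG17 at 0.94 and 0.23, and ATG31 read 0.56 and 0.12, with differences of 0.89, 0.82 and 0.81. ATG7 rose at 0.19 and 0.75 and ATG3 at 0.51 and 1.02, with differences of 0.86 and 0.58. By role, the responses called higher than in the parent are set beside 28.6% of all genes higher and 25.5% lower. They were 5 of the 6 Atg9 and phosphoinositide-binding genes, 8 of the 10 listed under receptors and selective autophagy (1 lower) and 4 of the 8 conjugation genes (1 lower). In the Atg1 complex 3 of 6 were higher (1 lower), in the vacuole 2 of 3, and in the phosphatidylinositol 3-kinase complex 0 of 2. The receptor gene ATG45 is in none of these lists.

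The 3 members whose response was called lower in arr1Δ than in the parent were ATG10, ATG13 and ATG41. ATG10 read 0.52 and 0.91, against 1.76, 1.90, 1.95 and 2.15 in the parent (difference -1.22 ± 0.21, adjusted p = 4.81e-08). It still rose in arr1Δ, but its arrays lay below every parent array. ATG13 fell in arr1Δ, at -0.95 and -0.45 (difference -0.79, adjusted p = 0.000507). ATG41 read 0.61 and -1.19, with opposite signs in the dye orientations (difference -0.50). ATG8 at 1.17 and 1.20, ATG40 at 1.50 and 1.13, ATG45 at 1.76 and 1.58 and ATG1 at 0.43 and 0.84 rose in arr1Δ, and their differences from the parent, -0.27, -0.13, -0.39 and -0.44, did not pass. Of the remaining members, ATG15 rose at 0.38 and 1.48, ATG4 at 0.77 and 0.18 and ATG29 at -0.03 and 0.80, ATG22 fell at -0.59 and -0.69, and ATG14, ATG27 and ATG38 had means of -0.31, -0.29 and 0.04.

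Of the 25 differences between arr1Δ and the parent, 18 remained called when each of the 6 arrays was left out in turn. The arr1Δ array 2 reversed ATG41 (0.39 without it) and ended the calls of ATG15 (0.25) and ATG3 (0.32), and leaving out a parent array ended those of ATG2, ATG3, ATG7, ATG13, ATG15, ATG17 and ATG41 in at least 1 case each. With arrays as replicates and the array number as a replicate block, adjusted p was 0.0744 for ATG15 and 0.233 for ATG41 in the contrast, and 0.144 for ATG29 and 0.396 for ATG4 within arr1Δ. Within arr1Δ alone, ATG4, ATG7, ATG15, ATG17, ATG19, ATG29 and ATG36 were called with only 1 of the arrays, and ATG29 read -0.03 without array 2.

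**Figure D4:**
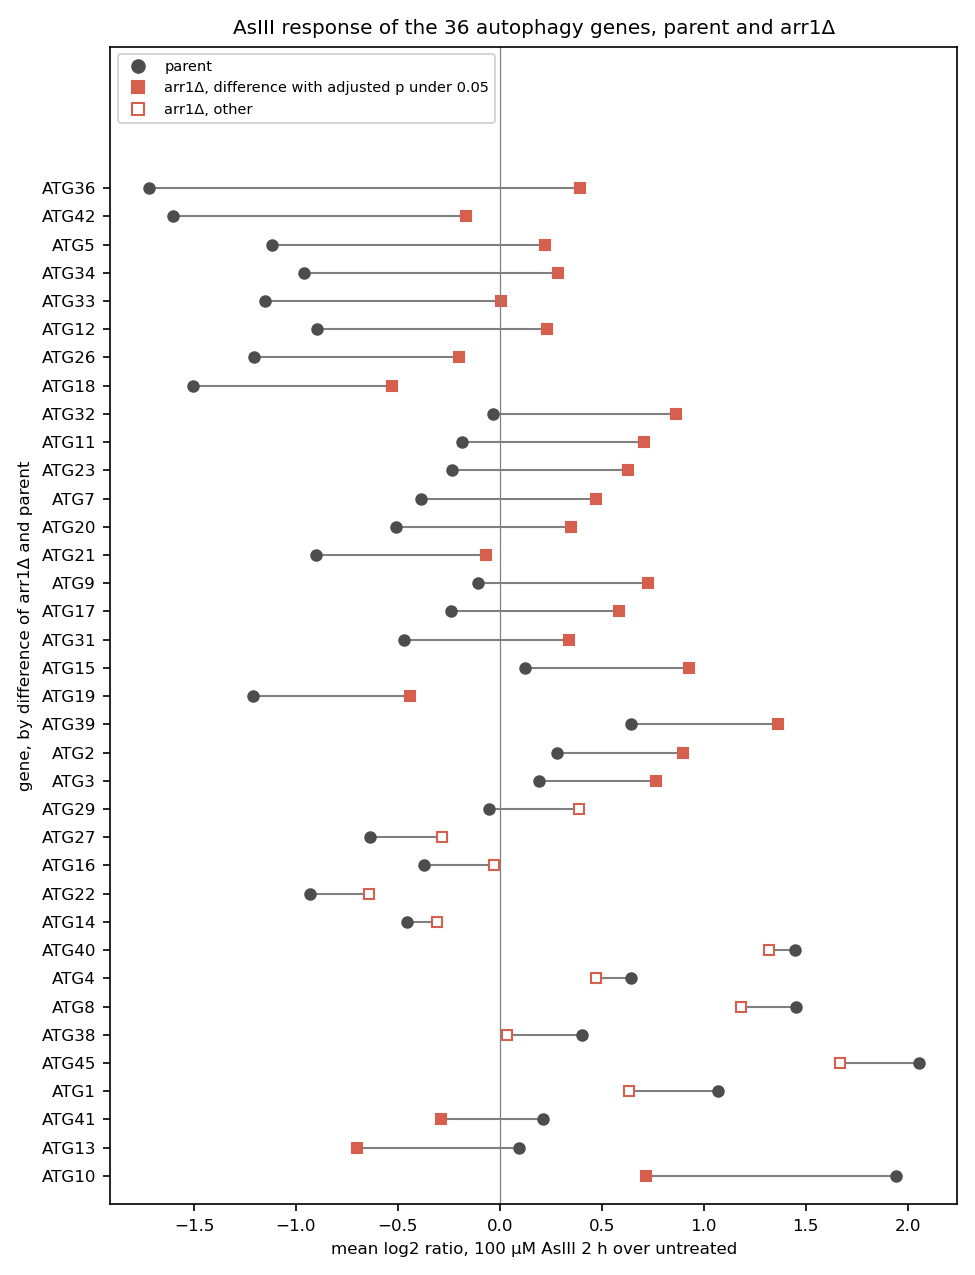
Mean log2 ratio of each autophagy gene after 100 µM AsIII for 2 h in the parent (grey circles, 4 arrays) and in arr1Δ (squares, 2 arrays, filled where the difference had an adjusted p under 0.05), ordered by the difference. 22 genes shift right and 3 shift left among the filled squares, from ATG36 at the top, with a difference of 2.11, to ATG10 at the bottom, with -1.22.

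In rpn4Δ, 10 members rose and 10 fell with AsIII, beside 24.4% and 29.9% of all genes. The members' median was 0.02, beside -0.06. Compared with the parent response, 12 members were higher and none lower (background 21.3% and 17.7%), with a median difference of 0.33, beside 0.06 over all genes. ATG39 differed most, reading 1.90 and 1.80 in rpn4Δ (difference 1.21 ± 0.21, adjusted p = 2.42e-07). Both arrays were above every parent array. Without AsIII, however, ATG39 stood at -0.72 in rpn4Δ against the parent, so the higher ratio is not a higher level by that amount. ATG26 read -0.39 and -0.06 (difference 0.98) and ATG23 read 0.86 and 0.49 (difference 0.91). These 3 differences remained when each of the 6 arrays was left out in turn. The count of called members fell to 3 without parent array 2, 4 without parent array 4 and 5 without parent array 1 or 3, where 17.4% to 22.8% of all genes were called, and was 14 without rpn4Δ array 1 (42.8%) and 19 without rpn4Δ array 2 (45.6%).

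7 of the 12 were receptor or selective autophagy genes: ATG39, ATG26, ATG19 at -0.31 and -0.50, ATG34 at -0.13 and -0.36, ATG36 at -0.87 and -1.31, ATG33 at -0.43 and -0.66 and ATG32 at 0.80 and 0.32. 3 were Atg9 or phosphoinositide-binding genes, ATG23, ATG21 at -0.08 and -0.43 and ATG18 at -1.10 and -0.80. The others were ATG12 at -0.26 and -0.51 and ATG45, a receptor gene in none of the lists, at 2.55 and 2.55. Of the 17 members that fell in the parent, 10 also fell in rpn4Δ, among them ATG36, ATG42 at -1.55 and -0.99 and ATG5 at -0.55 and -1.30. For all genes that fell in the parent this share was not computed, and 29.9% of all genes were called lower in rpn4Δ. ATG8 at 1.68 and 1.78, ATG10 at 1.92 and 2.18 and ATG40 at 1.78 and 1.14 rose and did not pass the contrast, with differences of 0.28, 0.11 and 0.01. Without 1 array, the differences of the other 9 called members lost their call at least once, ATG19 only without parent array 2 and ATG34 only without parent array 2 or 4. Under the replicate block, adjusted p was 0.0554 for the ATG45 difference, and 0.0562 for ATG12 and 0.0544 for ATG19 within rpn4Δ.

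In yap1Δ, 7 members rose and 18 fell (background 30.5% and 36%), with a median of -0.39, beside -0.07. The responses of 2 members were called higher than in the parent and of 3 lower (background 5.39% and 7.36%), and the median difference was 0.002, beside 0.07. ATG39 read -0.20 and -0.17 in yap1Δ, both below 0 where all 4 parent arrays were above 0 (difference -0.82 ± 0.21, adjusted p = 0.00165). ATG11 fell at -1.22 and -0.92 (difference -0.88, adjusted p = 0.000539), and ATG40 rose at 1.20 and 0.48 (difference -0.61, adjusted p = 0.0343). The responses of ATG10, at 2.10 and 3.00, and ATG26, at -0.66 and -0.53, were called higher than in the parent, by 0.61 and 0.61. None of the 5 remained called when each array was left out in turn: 0 members were called without parent array 2 or 3, 1 without parent array 1 and 2 without parent array 4 (2.36% to 5.91% of all genes), but 12 without yap1Δ array 1 (29.3%). The ATG39 difference ranged from -0.92 to -0.73 and lost its call without parent array 1, 2 or 3, and that of ATG11 ranged from -1.03 to -0.74 and did so without parent array 2 or 3. Under the replicate block, adjusted p was 0.0919 for the ATG40 difference and 0.179 for ATG13, which read 0.14 and 0.60 in yap1Δ.

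In cad1Δ, 9 members rose and 20 fell (background 31.9% and 36%), with a median of -0.49, beside -0.06. 1 member differed from the parent, ATG4, which read -0.35 and -0.06 in cad1Δ (difference -0.85 ± 0.21, adjusted p = 0.00316), with a background of 1.75% higher and 2.48% lower. It was below 0 on both cad1Δ arrays and above 0 on all 4 parent arrays, but the call was lost without any one of the parent arrays (-0.997 to -0.704). Under the replicate block the contrast called 2 members in place of 1. The median difference was -0.05, beside 0.05, and all 17 members that fell in the parent fell in cad1Δ. For all genes that fell in the parent this share was not computed. ATG36 read -1.50 and -2.06, ATG42 read -1.71 and -1.34, ATG10 read 1.78 and 2.28 and ATG45 read 2.14 and 2.22. Under the block the ATG15 value in cad1Δ, 0.24 and 1.11, had an adjusted p of 0.0724.

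ATG8, ATG10, ATG40, ATG45 and ATG1 rose in all 5 strains, and ATG18, ATG19 and ATG22 fell in all 5. The share of all genes called the same way in all 5 was not computed, and 50.1% to 77.4% of all genes were called in each. ATG19 had small means in rpn4Δ (-0.40) and arr1Δ (-0.44), and under the replicate block its adjusted p in rpn4Δ was 0.0544. With each array as a replicate, ATG1 no longer passed in rpn4Δ and arr1Δ. ATG1 read 0.38 and 0.83 in yap1Δ, 0.68 and 1.14 in cad1Δ, 0.43 and 0.81 in rpn4Δ and 0.43 and 0.84 in arr1Δ, with no difference from the parent past the test. ATG22 read -0.67 and -1.22 in yap1Δ, -0.90 and -0.82 in cad1Δ, -0.32 and -0.62 in rpn4Δ and -0.59 and -0.69 in arr1Δ, again with none past it.

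**Figure D5:**
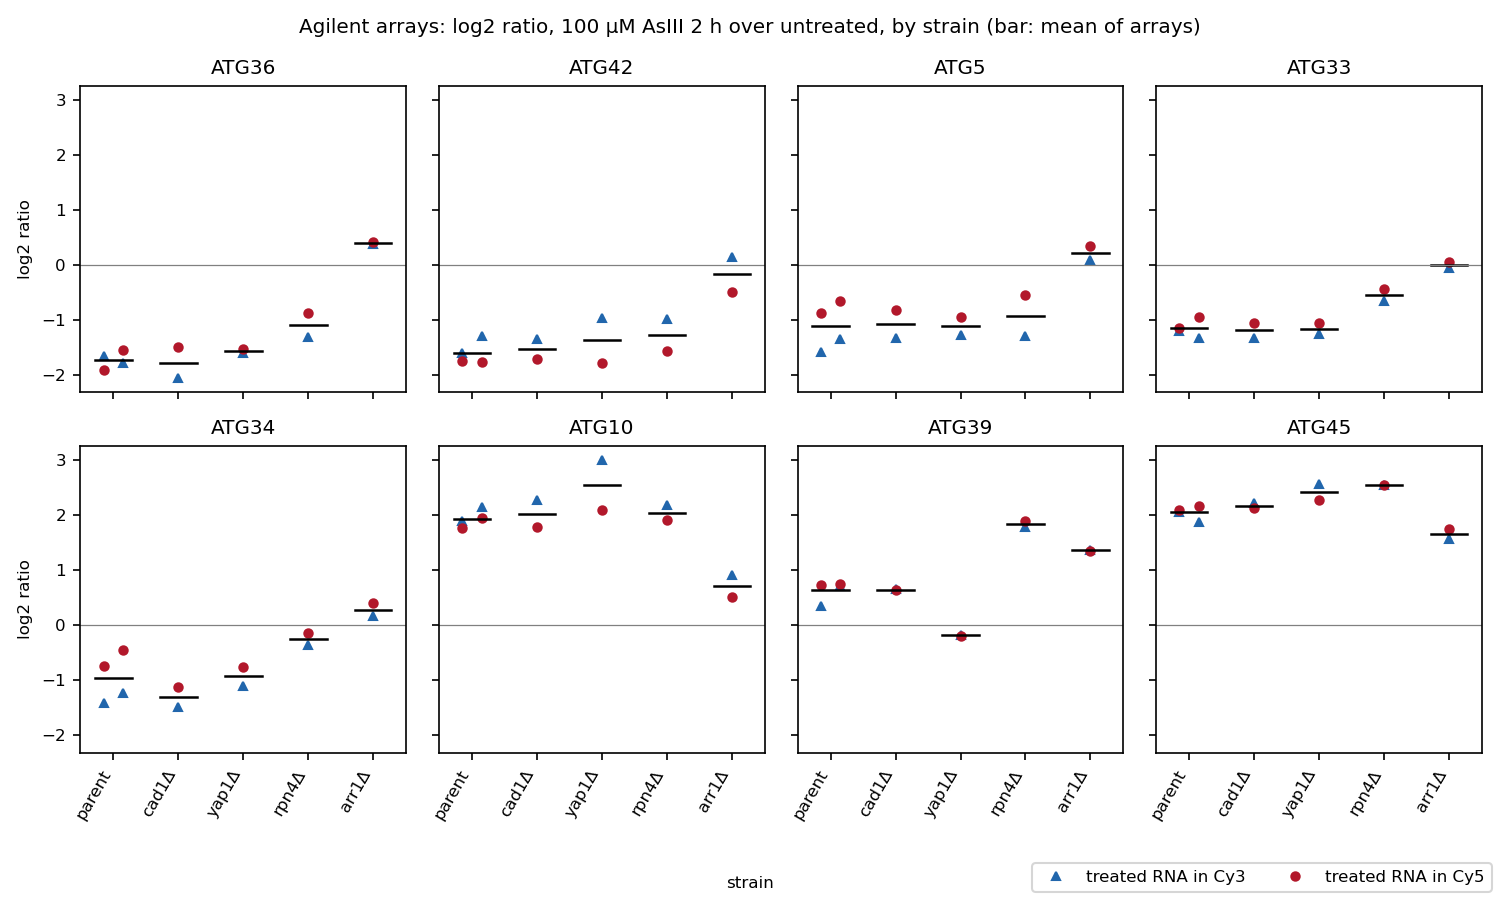
Log2 ratio of AsIII-treated over untreated cells on each Agilent array for 8 autophagy genes, by strain, with the dye of the treated RNA as symbol and the mean over arrays as bar. ATG36, ATG42, ATG5, ATG33 and ATG34 lie below 0 in the parent and cad1Δ and near 0 or above in arr1Δ, ATG10 is lowest in arr1Δ, and ATG39 runs from below 0 in yap1Δ to above 1.7 in rpn4Δ.

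Each deletion strain was also compared with the parent without AsIII. In untreated arr1Δ, 1 member was higher than in the parent and 6 were lower (background 11.8% and 11.5%), with a median of -0.18, beside -0.02. ATG39 was lowest, at -1.35 and -1.47 (mean -1.41 ± 0.17, adjusted p = 4.38e-14), and ATG32 read -0.61 and -1.08 (mean -0.84, adjusted p = 2e-05). ATG11 read -0.62 and -0.58, ATG9 -0.70 and -0.39, ATG20 -0.40 and -0.52 and ATG1 -1.33 and -0.33. These 6 were below 0 in both orientations. ATG17 was called higher, at 1.09 and -0.11, with opposite signs, and read -0.11 without array 1. ATG39, ATG32 and ATG11 remained called without either array, and 15 members were called without array 2 (37.7% of all genes). ATG1 and ATG9 were not called without array 1 (-0.33 and -0.39), nor was ATG20 without array 2 (-0.40, adjusted p = 0.0588 under the replicate block). 5 of the 6 members called lower before treatment, all but ATG20, rose with AsIII in arr1Δ. The same share for all genes called lower in untreated arr1Δ was not computed. Both comparisons include untreated arr1Δ cells, as numerator of the first ratio and denominator of the second. Picking members that were low there may therefore favour a rise.

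In untreated rpn4Δ, 4 members were higher and 5 lower (background 10.9% and 11%), with a median of -0.07, beside -0.01. ATG17 was highest, at 1.36 and 0.94 (mean 1.15 ± 0.17, adjusted p = 8.19e-10), and ATG36 read 0.69 and 0.53. ATG39 read -0.72 and -0.71 and ATG1 read -0.44 and -0.47. These 4 remained called without either array. ATG41 read -0.27 and -1.71 and ATG11 -0.74 and -0.15, ATG26 -0.41 and -0.50, ATG40 0.86 and 0.19 and ATG29 0.34 and 0.58, and each lost its call without one of the arrays (array 1 for ATG11 and ATG40, array 2 for ATG26, ATG29 and ATG41). Under the replicate block, adjusted p was 0.102 for ATG1, 0.0844 for ATG11, 0.135 for ATG29 and 0.0508 for ATG40.

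In untreated cad1Δ, 1 member was called lower and none higher (background 0.965% and 1.71%), and in untreated yap1Δ none was called in either direction (background 2.59% higher and 1.29% lower), with unadjusted p under 0.05 for 2 members. With array 1 left out, 10 members and 26.4% of all genes were called in untreated yap1Δ, and without array 2, 17 members and 40.9%. In untreated cad1Δ 5 members were called without either array, beside 13.5% of all genes without array 1 and 11.6% without array 2. The cad1Δ call was ATG41, at 0.36 and -1.61, which read 0.36 without array 2 and had an adjusted p of 0.369 under the replicate block, where 2 other members were called. Members' medians were 0.14 in cad1Δ and 0.05 in yap1Δ, beside -0.01 and -0.02. In yap1Δ 11 of the 36 members had the same sign in both dye orientations, and in cad1Δ 20 did. ATG15 read -1.57 and 1.15 in yap1Δ and -0.71 and 0.99 in cad1Δ.

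ATG15, ATG41 and ATG17 are examples of members that moved with the dye on the Agilent arrays. The trait was not particular to them. ATG29 also changed sign with the dye in the parent, and over all genes arrays of equal number, which fixes the dye, deviated together (correlations 0.62 to 0.96). In each of the AsIII comparisons there, ATG15 was above 0 with the treated RNA in Cy3 and lower with it in Cy5, and on the cDNA arrays at 2 h it read 1.23, 1.29, -1.28 and -1.13. ATG41 and ATG17 went the other way on every Agilent pair, higher with the treated or deletion RNA in Cy5. Means over both orientations are balanced in number, and the part of probe or dye chemistry in these values was not tested.

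The wider lists behaved as follows on the same arrays. 12 genes of vacuolar hydrolases and Cvt cargo were measured. In the parent on the Agilent arrays, 11 of them fell and 1 rose, with a median of -1.13, beside -0.10 over all genes and 42.7% of all genes lower. The largest falls were APE3, an aminopeptidase, at -2.21 ± 0.12, AMS1, the vacuolar alpha-mannosidase, at -1.52, DAP2, a dipeptidyl aminopeptidase, at -1.39 and PRC1, carboxypeptidase Y, at -1.28. APE1, the main Cvt cargo, was the gene that rose there (0.53), and it also rose at 1 mM on the cDNA arrays (2.23 ± 0.24, adjusted p = 0.00747), with PEP4, proteinase A (1.15, adjusted p = 0.022). On the cDNA arrays at 2 h none of the 12 was called and the median was 0.67, above 0 where the Agilent median was below it. In arr1Δ the AsIII responses of 10 of 12 were called higher than in the parent and of none lower (all genes 28.6% and 25.5%). The median difference was 1.18, led by PBI2, an inhibitor of proteinase B (1.96), PRB1, proteinase B (1.84), AMS1 (1.72) and ATH1, acid trehalase (1.71). Without AsIII, 4 of the 12 were called below the parent in arr1Δ and none above, PRB1 (-0.70) and AMS1 (-0.61) among them. These are differences between ratios, not levels. In rpn4Δ 7 responses were higher than in the parent (all genes 21.3%), that of AMS1 most (1.85). In yap1Δ 1 response was lower (all genes 7.36%), that of APE1 (-1.37).

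17 of 18 genes of the other autophagy and Cvt machinery were measured on both platforms. In the parent 8 rose and 5 fell, beside 34.7% and 42.7% of all genes, with a median of -0.11 against -0.10. VPS34, the phosphatidylinositol 3-kinase (-1.83), and VPS30, its Atg6 subunit (-1.13), fell, and VAM7, a vacuolar SNARE (1.60), and BRE5, a cofactor of the Ubp3 protease (1.18), rose. BRE5 (1.97, adjusted p = 0.0102) and UBP3 (0.91, adjusted p = 0.0473) also rose at 1 mM on the cDNA arrays. In arr1Δ the AsIII responses of 5 were called higher than in the parent and of 6 lower, beside 28.6% and 25.5% of all genes. The former included VPS34 (1.20) and VPS30 (1.00). The latter included VPS41, a tethering subunit (-1.84), and VPS15, the regulatory subunit of Vps34 (-1.12). The median difference of this list was 0.04, beside 0.79 for the 36 members.

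Of the nutrient and stress regulators, 31 of 32 were measured on both platforms, and in the parent 7 rose and 17 fell, beside 34.7% and 42.7% of all genes (median -0.39, all genes -0.10). The changes of largest size were those of the stress factor genes MSN4 (-1.84) and MSN2 (1.58), the kinase PHO85 (-1.78) and the histone deacetylase RPD3 (-1.64), the last 2 known as negative regulators of autophagy. At 1 mM on the cDNA arrays TOR1, the kinase that holds autophagy in check, fell (-1.55 ± 0.20, adjusted p = 0.0109), and MSN2 (0.89) and the nitrogen regulator URE2 (0.86) rose. In arr1Δ 9 were higher than in the parent and 3 lower (all genes 28.6% and 25.5%), led by PHO85 (1.60) and RPH1, a repressor of ATG genes (1.19), and in rpn4Δ 11 were higher and 6 lower (all genes 21.3% and 17.7%), led by PHO23 (1.15) and RPH1 (1.15).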

How the data were processed

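AsIII-treated against untreated cells, and deletion strains against the parent, were compared on 20 cDNA and 20 Agilent arrays. The authors deposited log2 ratios for the cDNA arrays, already turned to treated over untreated; how those were normalised is not given in the sources used here. On the Agilent platform the values the authors deposited were log10 ratios made with Agilent Feature Extraction, limited to ±2, and these were converted to log2; 451 values lay at the lower limit and 1100 at the upper. Symbols came from the platform annotation and RefSeq: 5577 of 6720 cDNA probes and 9202 of 10807 Agilent probes had 1 gene, and the rest were left out. Probes of a gene were averaged, then the arrays of each culture pair or dye-swap pair.

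All conditions of a platform were fitted together over all genes with limma 3.58.1 (R 4.3.3), with Benjamini-Hochberg adjustment over all genes and a threshold of 0.05, and checked on simulated data. Pairing of the parent arrays by consecutive number is an assumption. Arrays of equal number deviated together on the Agilent platform (all 72 correlations over 0.1, from 0.62 to 0.96), where the number also fixes the dye orientation, and in 34 of 36 cases on the cDNA arrays. All members are accounted for. Per-array values are given for those called or averaging 1 or more in size in some condition, and from the wider lists up to 4 called genes of largest size per comparison. The members and lists were chosen with earlier results of these data known. Alternatives were each array as a replicate, the array number as a replicate block, single dye orientations, median centring, robust moderation, crossed parent pairs, probes kept apart, call rules modelled on the methods, and each array left out. Where a condition had 1 pair, leaving out one of its arrays did not change the spread, so that check bears on its mean only. Sequences and promoter motifs were not analysed here.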

Additional observations from a re-analysis of the deposited data

Results flagged for a closer look

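Within the groups of 4 arrays, 38 sets of values were examined for a single array far from the rest, and 2 were found, where chance gives about 1 in 20. ATG8 on the cDNA arrays at 2 h of 100 µM had its lowest value, 1.74, on array 1 (Cy3). ATG39 in the parent on the Agilent arrays had its lowest value, 0.36, on array 2 (Cy3). Both stayed above 0 and both calls remained without that array.

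In 43 cases the log2 response of a member to AsIII differed between a deletion strain and the parent by limma's contrast (adjusted p under 0.05), and all 43 use the same 4 parent arrays. In yap1Δ the difference from the parent was 0.61 for ATG10, -0.88 for ATG11, 0.61 for ATG26, -0.82 for ATG39 and -0.61 for ATG40. In cad1Δ the difference from the parent was -0.85 for ATG4. In rpn4Δ the difference from the parent was 0.51 for ATG12, 0.56 for ATG18, 0.81 for ATG19, 0.64 for ATG21, 0.91 for ATG23, 0.98 for ATG26, 0.59 for ATG32, 0.61 for ATG33, 0.71 for ATG34, 0.63 for ATG36, 1.21 for ATG39 and 0.50 for ATG45. In arr1Δ the difference from the parent was 0.62 for ATG2, 0.58 for ATG3, 1.34 for ATG5, 0.86 for ATG7, 0.83 for ATG9, -1.22 for ATG10, 0.89 for ATG11, 1.13 for ATG12, -0.79 for ATG13, 0.80 for ATG15, 0.82 for ATG17, 0.97 for ATG18, 0.77 for ATG19, 0.86 for ATG20, 0.83 for ATG21, 0.86 for ATG23, 1.00 for ATG26, 0.81 for ATG31, 0.90 for ATG32, 1.16 for ATG33, 1.25 for ATG34, 2.11 for ATG36, 0.72 for ATG39, -0.50 for ATG41 and 1.43 for ATG42.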

How the results depend on the processing

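Most results kept their direction. Of the 7 gene calls on the cDNA arrays, none reversed under any alternative and 1 no longer passed with the Cy3 arrays alone. Of the 182 Agilent gene calls, 40 no longer passed with each array as a replicate, 51 with the Cy3 arrays alone, 26 with the Cy5 arrays alone, 6 after median centring and 16 under the replicate block of array numbers, and none did so under robust moderation or crossed parent pairs. With probes kept apart, 213 values kept their call, 17 lost it and none reversed. ATG29 in arr1Δ read -0.0268 and ATG41 in untreated cad1Δ read 0.36 with Cy5 alone, ATG17 in untreated arr1Δ read -0.11 with Cy3 alone, and ATG41 in arr1Δ minus parent read 0.39 without arr1Δ array 2. The cause was not tested for any of these. In what follows, the share of all genes called under the same setting stands in parentheses after each count of members, and many counts lie near it. With a replicate left out, the number of members called was 3 to 4 in 1 mM at 30 min (10.1% to 18.7%), 0 in 100 µM at 30 min (0%), 4 in 100 µM at 2 h (5.76% to 10.5%), 0 in 100 µM at 4 h (0%), 0 in 2 h minus 30 min (0%), 0 in 4 h minus 2 h (0%), 0 in 1 mM minus 100 µM at 30 min (0% to 0.0361%), 0 in 1 mM minus 100 µM at 2 h (0%), 24 to 26 in the parent (67.5% to 70.9%), 27 to 31 in yap1Δ (67.2% to 69.3%), 28 in cad1Δ (66.9% to 70.7%), 19 to 27 in rpn4Δ (57.9% to 58.6%), 19 to 24 in arr1Δ (53.2% to 54.1%), 0 to 12 in yap1Δ minus parent (2.36% to 29.3%), 0 to 5 in cad1Δ minus parent (0% to 12.3%), 3 to 19 in rpn4Δ minus parent (17.4% to 45.6%), 20 to 29 in arr1Δ minus parent (37.2% to 57.4%), 10 to 17 in untreated yap1Δ (26.4% to 40.9%), 5 in untreated cad1Δ (11.6% to 13.5%), 10 to 12 in untreated rpn4Δ (31% to 33.9%) and 7 to 15 in untreated arr1Δ (33.4% to 37.7%). The members' median log2 ratio was then -0.0835 to 0.0906 in 1 mM at 30 min, -0.12 to -0.0025 in 100 µM at 30 min, 0.30 to 0.36 in 100 µM at 2 h, -0.21 to -0.10 in 100 µM at 4 h, 0.43 to 0.58 in 2 h minus 30 min, -0.59 to -0.45 in 4 h minus 2 h, 0.0638 to 0.19 in 1 mM minus 100 µM at 30 min, -0.45 to -0.13 in 1 mM minus 100 µM at 2 h, -0.29 to -0.20 in the parent, -0.45 to -0.41 in yap1Δ, -0.52 to -0.45 in cad1Δ, -0.0575 to 0.0593 in rpn4Δ, 0.28 to 0.41 in arr1Δ, -0.0634 to 0.0681 in yap1Δ minus parent, -0.12 to -0.0074 in cad1Δ minus parent, 0.30 to 0.43 in rpn4Δ minus parent, 0.62 to 0.80 in arr1Δ minus parent, 0.10 to 0.13 in untreated yap1Δ, 0.15 to 0.16 in untreated cad1Δ, -0.0384 to -0.0204 in untreated rpn4Δ and -0.23 to -0.14 in untreated arr1Δ. With the Cy3 arrays alone, the members called numbered 7 in 1 mM at 30 min (18.5%), 0 in yap1Δ minus parent (4.56%), 0 in cad1Δ minus parent (0.125%), 4 in rpn4Δ minus parent (18%), 2 in untreated yap1Δ (5.91%), 3 in untreated rpn4Δ (12.8%) and 2 in untreated arr1Δ (11.6%), and the median was 0.13 in untreated yap1Δ, 0.15 in untreated cad1Δ and -0.0384 in untreated rpn4Δ. With the Cy5 arrays alone, the members called numbered 2 in yap1Δ minus parent (6.27%), 0 in cad1Δ minus parent (0.411%), 14 in untreated yap1Δ (36.7%), 5 in untreated cad1Δ (5.14%) and 15 in untreated arr1Δ (33.2%), and the median was 0.41 in 100 µM at 2 h, -0.34 in the parent, -0.45 in yap1Δ, 0.10 in untreated yap1Δ, 0.16 in untreated cad1Δ and -0.0204 in untreated rpn4Δ. With the parent arrays paired crosswise, the members called numbered 2 in cad1Δ minus parent (4.29%), 20 in rpn4Δ minus parent (53.5%), 2 in untreated cad1Δ (2.52%) and 12 in untreated arr1Δ (35.7%). With each array as a replicate, the members called numbered 21 in 1 mM at 30 min (53.8%), 15 in 100 µM at 2 h (42.4%), 3 in 100 µM at 4 h (22.3%), 13 in 2 h minus 30 min (26.7%), 15 in 4 h minus 2 h (37.3%), 8 in 1 mM minus 100 µM at 30 min (27.7%), 14 in 1 mM minus 100 µM at 2 h (27.4%), 2 in yap1Δ minus parent (7.59%), 0 in cad1Δ minus parent (0.607%), 0 in untreated cad1Δ (1.32%) and 4 in untreated rpn4Δ (15.5%). With arrays as replicates and array numbers as a replicate block, the members called numbered 24 in 1 mM at 30 min (59.9%), 18 in 100 µM at 2 h (49.8%), 5 in 100 µM at 4 h (30.6%), 20 in 2 h minus 30 min (34.1%), 16 in 4 h minus 2 h (44.4%), 9 in 1 mM minus 100 µM at 30 min (35.1%), 16 in 1 mM minus 100 µM at 2 h (36.2%), 2 in cad1Δ minus parent (8.13%) and 2 in untreated cad1Δ (3.61%), and the median was -0.31 in yap1Δ, 0.0739 in untreated yap1Δ and 0.15 in untreated cad1Δ. After median centring, the members called numbered 1 in 4 h minus 2 h (1.66%), 2 in cad1Δ minus parent (4.29%) and 2 in untreated cad1Δ (2.66%), and the median was -0.14 in the parent, -0.31 in yap1Δ, -0.43 in cad1Δ and 0.15 in untreated cad1Δ. By the rule of the 95% normal range, modelled on the methods but stricter, the members called numbered 0 in 1 mM at 30 min (2.85%) and 2 in 100 µM at 2 h (2.42%). With robust moderation, the members called numbered 3 in cad1Δ minus parent (6.25%), 1 in untreated yap1Δ (6.32%), 3 in untreated cad1Δ (3.82%) and 11 in untreated arr1Δ (29.8%). At the methods' cutoffs of 0.001 and 2-fold, applied to limma's unadjusted p in place of the paper's error model, the members called numbered 12 in the parent (25.3%), 9 in yap1Δ (25.2%), 12 in cad1Δ (27.1%), 7 in rpn4Δ (14.6%), 4 in arr1Δ (11.7%), 0 in yap1Δ minus parent (3.73%), 0 in cad1Δ minus parent (0.929%), 1 in rpn4Δ minus parent (9.54%), 8 in arr1Δ minus parent (21.6%), 0 in untreated cad1Δ (0.429%), 1 in untreated rpn4Δ (4.47%) and 1 in untreated arr1Δ (2.95%). The block changed no other Agilent count by more than 1.5 times. Leaving out a whole culture pair or parent pair left no residual degree of freedom, so it gave values and no test. The number of arrays, with 1 dye-swap pair per deletion strain, limits what could be called, and Agilent ratios stop at 100-fold.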
